A study of Mus musculus with 2 samples.

Results

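Tight junctions are the apical seams between neighboring epithelial cells, and the 9 genes described here encode their main parts in the intestine. They were chosen by name from a count table of 19294 genes, and all 9 of 9 were present. The table came from mRNA-seq of mouse intestinal organoids (mIOs), which are crypt-derived epithelial cultures grown in EGF, Noggin and R-spondin. Both cultures carried the Lgr5-EGFP-IRES-creERT2 allele, which places EGFP at the Lgr5 locus of stem cells, and both were harvested at day 4. One library was an untreated control, and the other came from mIOs treated with dextran sulfate sodium (DSS), a sulfated sugar polymer toxic to gut epithelial cells, for 4 days. The DSS concentration, the age and sex of the animals and the number of animals behind each library are not given in the sources used here.

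Claudins are four-pass membrane proteins whose extracellular loops meet between adjacent cells and decide which ions pass. Claudin-2 and claudin-15 form channels for small cations and water, whereas claudin-3 tightens the junction, and claudin-4 and claudin-7 are usually placed with the barrier-forming claudins although their effect differs between tissues. Occludin and tricellulin carry a MARVEL domain, JAM-A is an immunoglobulin-type adhesion protein, and ZO-1 is the scaffold under the membrane that binds claudin tails and links them to actin. In the mouse small intestine, claudin-2 is known mainly from crypts, and claudin-15 is the main channel that returns sodium to the lumen for nutrient uptake.

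The genes lie on 6 chromosomes of the mouse genome (GRCm38, GENCODE vM21). Cldn2 is on chromosome X from 139800828 to 139811386, Cldn7 on chromosome 11 from 69964779 to 69967885, Tjp1 on chromosome 7 from 65296165 to 65527781 and F11r on chromosome 1 from 171437535 to 171464603. Cldn15 lies on chromosome 5 from 136966616 to 136975858. On the same chromosome, Cldn4 (134945119 to 134946934, minus strand) and Cldn3 (134986214 to 134987472, plus strand) are neighbors with 39279 bases between them, and each is annotated with 1 exon. Ocln (100496507 to 100552718) and Marveld2 (100595957 to 100616971) are neighbors on the minus strand of chromosome 13, with 43238 bases between them.

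The promoters of the 2 pore-forming members are shown because these genes differed in opposite directions between the libraries. Each window runs from 250 bases before to 50 bases after the annotated start in the direction of transcription (RefSeq, GRCm38.p6), Cldn2 at chrX:139800558-139800857 and Cldn15 at chr5:136967619-136967918, both on the plus strand. For Cldn15, this start lies inside the gene's GENCODE span, which begins further upstream. Capitals mark the TATA box letters TATAAA.
Cldn2: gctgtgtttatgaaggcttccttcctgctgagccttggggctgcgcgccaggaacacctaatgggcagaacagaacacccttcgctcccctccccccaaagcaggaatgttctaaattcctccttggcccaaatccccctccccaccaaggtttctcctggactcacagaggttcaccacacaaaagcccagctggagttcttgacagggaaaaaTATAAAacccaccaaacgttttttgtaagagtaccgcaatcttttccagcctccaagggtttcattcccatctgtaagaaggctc
Cldn15: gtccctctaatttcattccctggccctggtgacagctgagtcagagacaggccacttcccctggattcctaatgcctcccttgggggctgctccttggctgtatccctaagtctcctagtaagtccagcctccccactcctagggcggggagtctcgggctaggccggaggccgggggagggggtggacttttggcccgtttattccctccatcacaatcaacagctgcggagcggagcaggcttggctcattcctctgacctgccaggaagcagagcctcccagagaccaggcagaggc

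The TATAAA letters began 35 bases before the start of Cldn2. Read on both strands, TATAAA was present in 13.6% of all 32851 promoter windows in the reference table. Among the 12 windows of the 9 genes it was found in 3, the other 2 being overlapping windows of Marveld2 that held it 223 and 250 bases upstream on the opposite strand. The letters TTTATNG for CDX factors, AGATAA for GATA factors, GTTAATNAT for HNF1, CTTTGAT for TCF factors and CAAAGTCCA for HNF4 were in none of the 12 windows. Over all windows they were found in 10.9%, 11.2%, 0.801%, 3.73% and 0.475%. GC content was 51.3% for Cldn2 and 61.0% for Cldn15, beside a median of 52.7% over all windows.

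Sequencing depth was 65493032 counts for the control and 59746968 for DSS. Levels are given as CPM, the gene's share of its library scaled with TMM factors. Differences are log2 ratios of CPM (DSS relative to control), each with an exact 95% interval that reflects counting error alone. With 1 library per condition there was no replicate check, and the conditions were not tested against each other. The table lists no gene without a count in one of the libraries, so such genes cannot be described. Before the junction genes were compared, the labels were checked against cell markers. The epithelial genes Epcam and Cdh1 were at 941 and 886 CPM in the control and at 960.3 and 865 CPM in the DSS library. Not all of the 8 epithelial markers were this level between the libraries. Their log2 ratios ranged from -1.35 (Cdx2) to 1.25 (Vil1), 5 above 0 and 3 below. The labels call both samples intestinal stem cells, but 6 of 6 stem cell markers were lower in the DSS library, and their summed level was 1097 CPM in the control and 198 CPM with DSS.

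Cldn2, which encodes the cation and water channel claudin-2, was the only one of the 9 genes that was lower in DSS-treated mIOs under each scaling tried. Its counts were 18626 (control) and 5963 (DSS), or 260.2 and 109 CPM. The log2 ratio was -1.25 with an interval from -1.30 to -1.21, a level 2.39-fold lower. Cldn15, the other pore-forming member, went the opposite way, from 22577 to 32041 counts and from 315 to 586 CPM. Its log2 ratio was 0.89 (0.87 to 0.92), a level 1.86-fold higher with DSS. Per kilobase of exon, the control library held 78.3 CPM of Cldn2 and 149 of Cldn15, and the DSS library 32.8 and 276.

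**Figure D1:**
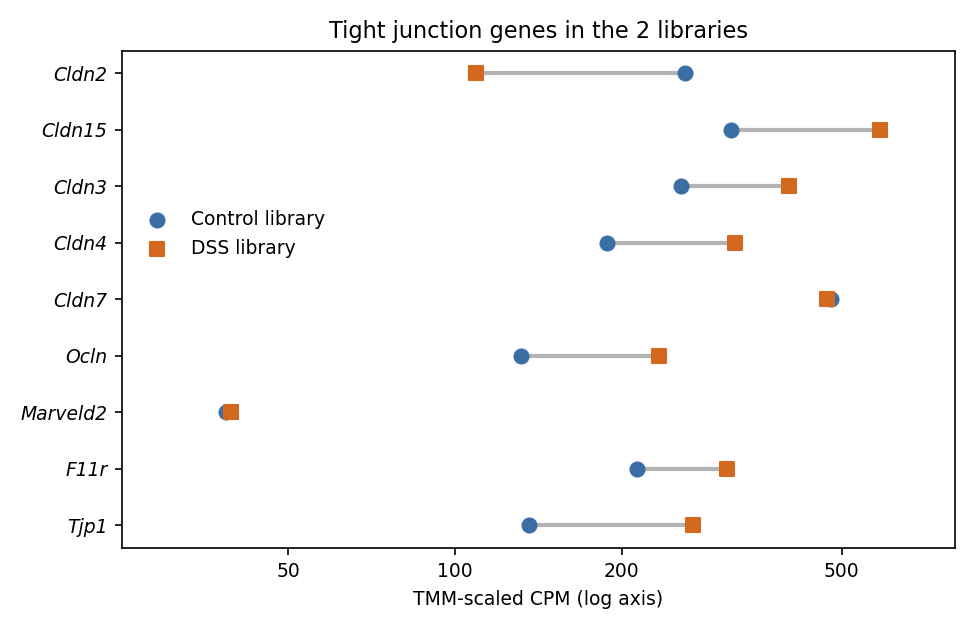
TMM-scaled CPM of the 9 genes on a log axis, with a circle for the control library and a square for the DSS library (1 library each, no error bars). Cldn2 is at 260.2 CPM in the control and 109 with DSS, Cldn7 and Marveld2 nearly coincide, and the squares of the other genes lie to the right of the circles.

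Cldn3 and Cldn4, barrier-forming claudins encoded side by side, were both higher in the DSS library. Cldn3 had 18357 and 21943 counts, or 256 CPM in the control and 401 with DSS, for a log2 ratio of 0.65 (0.62 to 0.67). Cldn4 had 13453 and 17502 counts, or 188 and 320.1 CPM, for a log2 ratio of 0.77 (0.74 to 0.80). The transcripts of these 2 genes share an exact run of 35 bases, the longest between any of the member claudins, and the read length and the handling of shared reads are not given in the sources used here. Cldn3 also overlaps 40 exonic bases of the antisense gene Wbscr25, which had 12 and 64 counts. Cldn7, whose product binds the adhesion protein EpCAM, differed least among the claudins, with 34207 and 25738 counts, or 478 and 471 CPM. Its log2 ratio of -0.02 (-0.05 to 0.00) held 0 within its counting interval, and the value was -0.28 with total counts.

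The 2 MARVEL members differed, with Ocln higher in the DSS library and Marveld2 near 0. Ocln, which encodes occludin of the bicellular junction, had 9432 counts in the control and 12785 with DSS, or 132 and 234 CPM. Its log2 ratio was 0.83 (0.79 to 0.87). Marveld2 encodes tricellulin, which seals the points where 3 cells meet. It had 2760 and 2153 counts, or 38.6 and 39.4 CPM, and a log2 ratio of 0.03 (-0.05 to 0.11), or -0.23 with total counts. The 2 neighboring genes therefore differed in their ratios by 0.80 on the log2 scale (0.71 to 0.89), a value free of library scaling.

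F11r, the gene of JAM-A, had counts of 15239 (control) and 16938 (DSS), or 213 and 309.8 CPM, for a log2 ratio of 0.54 (0.51 to 0.57). Tjp1, the gene of ZO-1, had the highest ratio of the 9. It had 9757 counts in the control and 14727 with DSS, or 136 and 269 CPM. The log2 ratio was 0.98 (0.95 to 1.02), a level 1.98-fold higher. The table merges 13 RefSeq transcripts of Tjp1 and 6 of Ocln into 1 count each, so isoforms were not resolved.

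As a group, 7 of the 9 genes were higher and 2 lower in the DSS library, with a median log2 ratio of 0.65. Over the 17235 genes that reached 10 counts in either library, the median was -0.06 and 48.0% were above 0. When libraries were scaled by total counts instead, 6 of the 9 genes were above 0, and with upper quartile factors 8 were, since Cldn7 and Marveld2 lay close to 0. None of the 9 genes had a log2 ratio of 1 or more, a doubling, beside a background of 19.3% of all genes. Tjp1 was just below this line and crossed it with upper quartile factors, at 1.07. Cldn2 alone had a ratio of -1 or less, beside 20.2% of all genes. None was at 2 or more, or at -2 or less, where the backgrounds were 7.87% and 6.54%. The 9 genes are abundant, and for the 8960 genes that reached 1000 counts in either library the backgrounds were 12.8% at 1 or more, 17.7% at -1 or less, 4.23% at 2 or more and 5.38% at -2 or less. Of all genes past a line of 1 in either direction, 48.9% were higher with DSS, 37.1% with total counts and 53.7% with upper quartile factors.

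**Figure D2:**
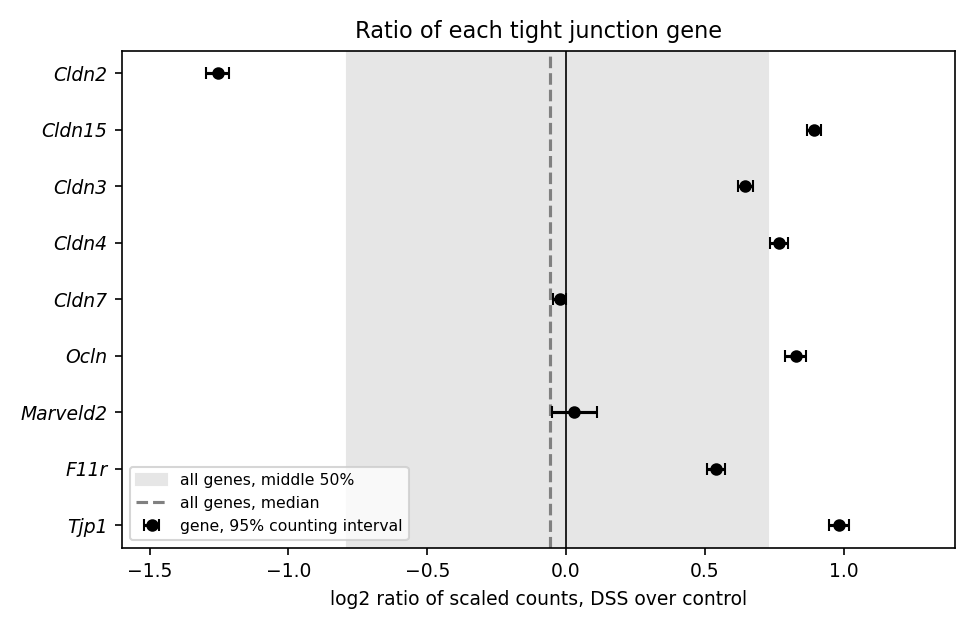
Log2 ratio of scaled counts, DSS over control, for each of the 9 genes, with exact 95% intervals for counting error. The gray band spans the interquartile range of all 17235 genes and the dashed line their median of -0.06, and Cldn2 at -1.25 lies left of the band while Tjp1 at 0.98, Cldn15 at 0.89, Ocln at 0.83 and Cldn4 at 0.77 lie right of it.

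Ratios between 2 genes within a library do not depend on how the libraries were scaled. The control library held 0.825 counts of Cldn2 per count of Cldn15, and the DSS library held 0.186. The 2 log2 ratios differed by -2.15 (-2.20 to -2.10), with no replicate behind either library. Against the barrier-forming claudins, the difference for Cldn2 was -1.90 with Cldn3 (-1.95 to -1.85), -2.02 with Cldn4 (-2.08 to -1.97) and -1.23 with Cldn7 (-1.28 to -1.18). For Cldn15 the same differences were 0.25 with Cldn3 (0.21 to 0.29), 0.13 with Cldn4 (0.08 to 0.17) and 0.92 with Cldn7 (0.88 to 0.95). The ratio of Cldn15 thus lay close to those of Cldn3 and Cldn4, and that of Cldn7 stood apart from these 3 genes. Of the 25 gene pairs and sums compared this way, the largest difference was that of Cldn2 against the scaffold gene Tjp1, at -2.24 (-2.29 to -2.18). Against Tjp1, Cldn15 differed by -0.09 (-0.13 to -0.04), Cldn4 by -0.21 (-0.26 to -0.17) and Cldn7 by -1.004 (-1.05 to -0.96).

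The claudin pool differed in makeup more than in the share of pore-forming members. Per kilobase of annotated exon, Cldn2 made up 10.04% of the 5 member claudins in control mIOs and 3.14% after DSS, while Cldn15 made up 19.1% and 26.4%. Together they held 29.1% in the control and 29.5% with DSS, so the smaller share of Cldn2 and the larger share of Cldn15 nearly offset each other in the sum. Cldn3 held 26.1% and 30.5%, Cldn4 13.3% and 16.9%, and Cldn7 31.5% and 23.1%. Counted as reads without division by length, the pore-forming share was 38.4% and 36.8%, and the summed counts of Cldn2 and Cldn15 against those of Cldn3, Cldn4 and Cldn7 differed by -0.10 on the log2 scale (-0.12 to -0.07). The direction of this small difference therefore depended on the length correction. It also depended on the pool. Among all 11 claudins listed, the pore-forming share per kilobase of annotated exon was 27.86% in the control and 27.83% with DSS. On the read scale, the share of Cldn2 was 17.4% in the control (exact interval 17.1% to 17.6%) and 5.78% with DSS (5.64% to 5.92%), and that of Cldn15 was 21.1% (20.8% to 21.3%) and 31.1% (30.8% to 31.3%).

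**Figure D3:**
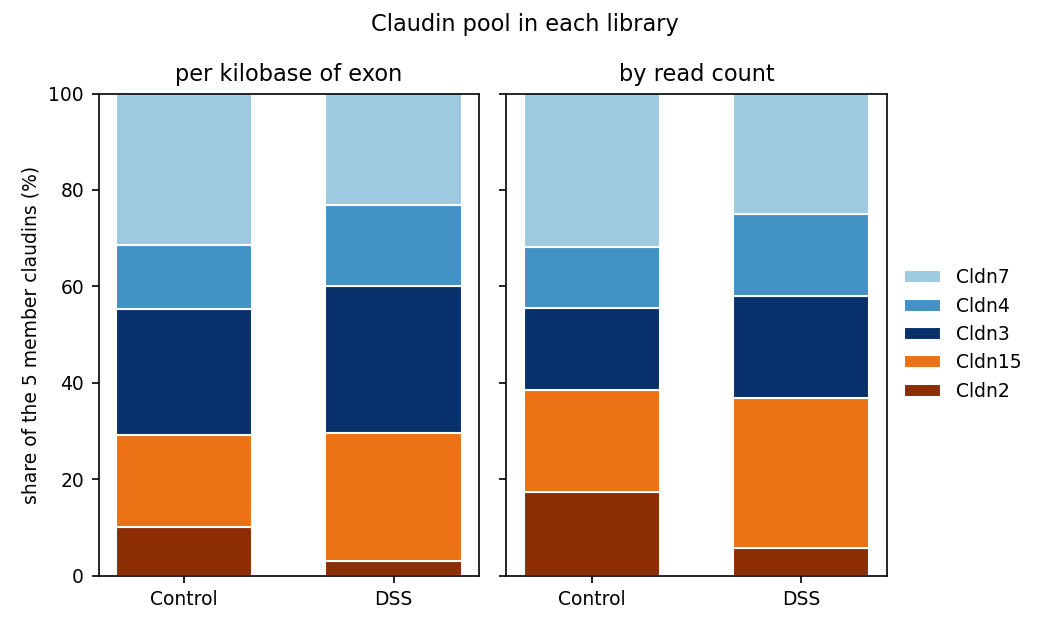
Share of each member claudin among the 5 in each library, in percent, per kilobase of exon (left) and by read count (right), with 1 stacked bar per library. Cldn2 shrinks from 10.04% to 3.14% and Cldn15 grows from 19.1% to 26.4% per kilobase, while the 2 pore-forming segments together reach 29.1% and 29.5%.

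Levels of different genes can be set side by side only per length. In CPM per kilobase of exon, the control library had Cldn7 at 245, Cldn3 at 204, Cldn15 at 149, Cldn4 at 104, F11r at 80.0 and Cldn2 at 78.3. Below these came Ocln at 31.2, Tjp1 at 17.5 and Marveld2 at 11.4. In the DSS library, the order was Cldn3 at 319, Cldn15 at 276, Cldn7 at 242, Cldn4 at 176, F11r at 116, Ocln at 55.4, Tjp1 at 34.5, Cldn2 at 32.8 and Marveld2 at 11.6. Cldn2 was thus above Ocln and Tjp1 in the control and below both in the DSS library, which also held with the longest annotated transcript as the length. The order of Cldn2 and F11r in the control and the top of the order in the DSS library depended on the length. With the longest transcript, Cldn2 came just before F11r in the control, and Cldn7 remained the highest claudin in the DSS library, at 29.6% of the pool, before Cldn3 at 26.8% and Cldn15 at 25.9%.

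Of 33 mouse claudins looked up, 11 were listed, the 5 described above and 6 others. Of these 11, 7 (63.6%) had log2 ratios above 0, beside 48.0% of all genes. The 7 include Cldn1, Cldn9 and Cldn18, which had few control counts. Cldn23, which is known from differentiated surface epithelium, was at 20.2 CPM in the control and 91.3 with DSS, a log2 ratio of 2.18 (2.09 to 2.26). Cldn8, a barrier-forming claudin of distal colon and kidney, was at 26.4 and 9.80 CPM, a log2 ratio of -1.43 (-1.57 to -1.29). Cldn12, linked to calcium passage, was at 52.0 and 36.7 CPM, a log2 ratio of -0.50 (-0.58 to -0.42). Cldn1, a sealing claudin of many epithelia, and Cldn18, known from stomach and lung, were near the limit of detection in the control, with 8 and 11 counts. They had 95 and 214 counts with DSS, and their log2 ratios of 3.96 (2.92 to 5.21) and 4.67 (3.80 to 5.69) rest on these low control counts. Cldn9, named after its values were seen as the last of the family in the table, had 4 and 18 counts. The absence of the other 22 claudins from the table, Cldn10 and Cldn5 among them, gives no value for them.

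Around the claudins, 10 lists of junction genes were examined, chosen with earlier results of these data known. They named 111 genes, of which 85 were listed and 83 reached 10 counts in either library. Of these 83 genes, 56 were higher and 27 lower in the DSS library, with a median log2 ratio of 0.37 beside -0.06 for all genes. A ratio of 1 or more was found for 19.3% of them and a ratio of -1 or less for 10.8%, beside 19.3% and 20.2% of all genes, or 12.8% and 17.7% of all genes that reached 1000 counts. Among those at 1 or more, Cldn1, Cldn9, Jam2, Snai1 and Zeb1 reached 10 counts only in the DSS library. Such low control counts favor high ratios, and shares with the minimum in both libraries were not computed for the lists. With total counts the median was 0.11, and the medians of the single lists below were likewise lower by 0.26. The 4 lists of claudins and MARVEL or tricellular proteins had medians of -0.18 (2 pore-forming claudins), 0.71 (6 barrier-forming claudins), 2.18 (3 other claudins) and 0.37 (5 MARVEL and tricellular proteins). Without Cldn9, which did not reach 50 counts in either library, the median of the other claudins was 0.84. The barrier-forming median includes Cldn1 and Cldn18, whose high ratios rest on 8 and 11 control counts. The rest of that list ran from -1.43 (Cldn8) to 0.77 (Cldn4), with Cldn7 at -0.02 and Cldn3 at 0.65, and their median was not computed.

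**Figure D4:**
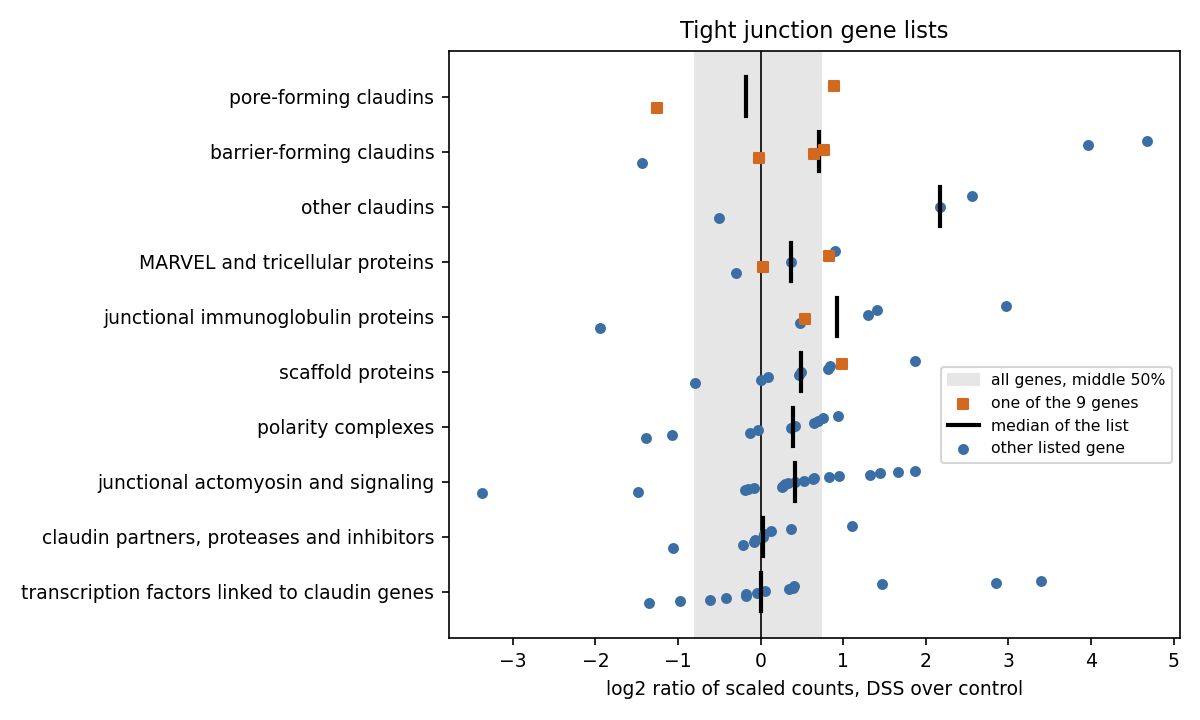
Log2 ratio of scaled counts, DSS over control, for the listed genes that reached 10 counts in either library, 1 row per list, with squares for the 9 genes, circles for the others and a bar for each list's median. Most medians lie between 0 and 1, the 2 pore-forming claudins lie on opposite sides of 0, and the gray band is the interquartile range of all genes.

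Adhesion proteins of the immunoglobulin type had a median log2 ratio of 0.92, with 5 of 6 genes above 0. Jam2, among the 5, had only 2 counts in the control and 12 with DSS. Cxadr, the coxsackievirus and adenovirus receptor, was at 178 CPM in the control and 439 with DSS, a log2 ratio of 1.30 (1.27 to 1.33). Igsf5, also called JAM4, was at 20.3 and 54.0 CPM, a log2 ratio of 1.41 (1.32 to 1.505). Esam, an adhesion protein best known from endothelium, was at 7.31 and 1.90 CPM, a log2 ratio of -1.94 (-2.26 to -1.64). In the MARVEL and tricellular list, Marveld3 had a log2 ratio of 0.90 (0.79 to 1.004), and Ildr1, an angulin that recruits tricellulin, one of 0.37 (0.27 to 0.46).

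Scaffold genes had a median of 0.49, with 8 of 9 above 0. Besides Tjp1, the largest ratios among those with at least 50 counts in a library were those of Patj at 0.83 (0.79 to 0.88), a multi-PDZ protein of the Crumbs complex, and of Cgn at 0.81 (0.78 to 0.85), the gene of cingulin, which ties ZO-1 to actomyosin. Polarity genes had a median of 0.39 over 10 genes, 6 above 0. Pard6b was at 113 and 216 CPM, a log2 ratio of 0.93 (0.89 to 0.98). Its kinase partners differed in direction. Prkci was at 121 and 57.6 CPM, a log2 ratio of -1.07 (-1.13 to -1.01), and Prkcz at 46.4 and 72.9 CPM, a log2 ratio of 0.65 (0.58 to 0.72). Amot, the gene of angiomotin, had a log2 ratio of -1.39 (-1.47 to -1.31). The related Amotl2 was at 0.70 (0.60 to 0.80), and Amotl1, with low counts, at 0.42 (-0.19 to 1.03).

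The contractile belt that pulls on the junction showed wide ratios in both directions, with a median of 0.42 over 19 genes, 14 of them above 0. Mylk, the myosin light chain kinase whose activity opens the junction in inflammation, was at 61.7 CPM in the control and 195 with DSS, a log2 ratio of 1.66 (1.61 to 1.71). Arhgef2, an activator of RhoA held at the junction by cingulin, was at 11.7 and 42.7 CPM, a log2 ratio of 1.87 (1.76 to 1.99). Myl9, a regulatory light chain, was at 85.2 and 8.25 CPM, a log2 ratio of -3.37 (-3.51 to -3.23). The regulatory light chain genes Myl12b and Myl12a in the same list went the other way. Myl12b was at 246 and 474 CPM, a log2 ratio of 0.94 (0.92 to 0.97), and Myl12a at 142 and 171 CPM, a log2 ratio of 0.27 (0.23 to 0.31). These are mRNA levels, and phosphorylation of the light chains was not measured.

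Genes that protect or process claudins lay near the middle, with a median of 0.03 over 9 genes, a sign that depends on scaling. Epcam, the partner of claudin-7, had a log2 ratio of 0.03 (0.01 to 0.05), close to that of Cldn7. Spint1, an inhibitor of the membrane protease matriptase, was at 145 and 311 CPM, a log2 ratio of 1.10 (1.06 to 1.14), and St14, the gene of matriptase, had a log2 ratio of 0.37 (0.34 to 0.40). Wnk4, a kinase known to act on claudins in the kidney, was at -1.06 (-1.15 to -0.98) on the log2 scale. The transcription factors linked to claudin genes had a median of 0.00 over 14 genes, 7 above 0 and 7 below with TMM factors. Without Snai1 and Zeb1, which did not reach 50 counts in either library, the median was -0.11. Cdx2, an intestinal identity factor known to act on the Cldn2 promoter, was at 179 CPM in the control and 70.2 with DSS, a log2 ratio of -1.35 (-1.40 to -1.30). Klf4, a factor of differentiated cells, was at 65.01 and 179.8 CPM, a log2 ratio of 1.47 (1.42 to 1.52), and Grhl2, an epithelial factor, had a log2 ratio of -0.98 (-1.07 to -0.89).

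Markers of the cell types in the cultures moved with these genes. In bulk libraries, fewer cells of a type and less RNA per cell cannot be told apart. The 10 enterocyte markers were all higher with DSS, and their sum went from 3032 to 24548 CPM. Per kilobase of exon, the most abundant of them was Fabp1 in the control and Apoa1 with DSS. The 8 goblet cell markers, of which Tff3 was the most abundant per kilobase in both libraries, were all higher, from 866 to 11711 CPM in sum, as were the 8 enteroendocrine markers, with Chgb the most abundant per kilobase, from 859 to 4519 CPM. All 9 cycling markers were lower, from 1398 to 105 CPM, and all 6 stem cell markers had log2 ratios from -9.59 (Olfm4) to -1.25 (Smoc2), which were the most abundant of them per kilobase in control and DSS-treated mIOs, respectively. The 7 Paneth cell markers, with Defa24 the most abundant per kilobase among those with an annotated length, were all lower, from 1073 to 335 CPM in sum, and the 5 tuft cell markers summed to 9.04 and 4.46 CPM. Of 4 M cell markers, 2 were listed, at 2.56 and 5.07 CPM in sum. Cldn2, at -1.25, had the same direction as the crypt markers, and the part of cell composition in any of these junction values was not tested.

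Markers of cells other than epithelium were low in both libraries. Of 9 mesenchymal markers, 5 were listed, with a sum of 6.66 CPM in the control and 36.1 with DSS, Vim being the most abundant per kilobase, while Col1a2, Col3a1, Dcn and Lum were not in the table. Of 5 endothelial markers, Pecam1 and Tek were listed, at 0.335 and 2.78 CPM in sum. Of 7 immune markers, Itgam and Cd68 were listed, at 12.1 and 22.9 CPM in sum, and Ptprc was not in the table. The epithelial list had a median of 0.03 over 8 genes, with sums of 6037 and 9291 CPM, Krt8 being the most abundant per kilobase. The log2 ratios of the 8 genes ran from -1.35 (Cdx2) to 1.25 (Vil1), 5 above 0 and 3 below, and that of their sum was 0.62. Scaling on the sum of Epcam and Cdh1, which lay near the middle of this list, moved all genes by 0.002 on the log2 scale. Per unit of these transcripts Cldn2 was at -1.25 and Tjp1 at 0.98. Scaling on the sum of the whole epithelial list was not tried.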

How the data were processed

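mRNA-seq libraries were prepared from 1 control and 1 DSS-treated mIO culture with a stranded poly(A) kit. Per the labels, HISAT2 and StringTie were used, and their versions, the counting program and the genome build are not given in the sources used here. The deposited values were raw, unnormalized read counts, 1 per gene, and the single-sample files, named FPKM, held the same counts for all 19294 genes. Counts were scaled with TMM factors (edgeR 4.0.16, R 4.3.3), and ratios were given with exact Clopper-Pearson 95% intervals. Differences between 2 ratios were given with the conditional interval of Fisher's method. Lengths and gene locations were taken from GENCODE vM21 by symbol, and promoters from RefSeq.

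Members and lists were chosen with earlier results of these data known. Named genes were the members, other claudins with at least 50 counts in a library, and the 3 largest absolute log2 ratios per list with at least 50 counts, beside cell type markers such as Epcam. Cldn9, Myl12a, Myl12b, Prkcz, Amotl1, Amotl2, Jam2, Snai1 and Zeb1 fall outside this rule and were named after their values were seen. Alternative scalings used total counts, DESeq2 1.42.0 size factors, upper quartile factors or Epcam and Cdh1, and other alternatives were a prior count of 2, thinning, other count minimums and other lengths. The minimum of 1000 counts and centering on the median were added after seeing the data. The calculation was tested on simulated data. Protein sequences were not analysed here. Python 3.11.15, scipy 1.17.1 and matplotlib 3.10.9 were used.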

Additional observations from a re-analysis of the deposited data

How the results depend on the processing

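Another scaling moved all genes alike, by -0.26 on the log2 scale with total counts, 0.09 with upper quartile factors and 0.06 with centering on the median, and by less than 0.01 with DESeq2 size factors or Epcam and Cdh1. With total counts, the log2 ratios were -1.51 for Cldn2, 0.39 for Cldn3, 0.51 for Cldn4, -0.28 for Cldn7, 0.64 for Cldn15, 0.57 for Ocln, 0.73 for Tjp1, 0.28 for F11r and -0.23 for Marveld2. With upper quartile factors, they were -1.16 for Cldn2, 0.74 for Cldn3, 0.86 for Cldn4, 0.0686 for Cldn7, 0.98 for Cldn15, 0.92 for Ocln, 1.07 for Tjp1, 0.63 for F11r and 0.12 for Marveld2. Centered on the median of all genes, they were -1.20 for Cldn2, 0.70 for Cldn3, 0.83 for Cldn4, 0.0357 for Cldn7, 0.95 for Cldn15, 0.88 for Ocln, 1.04 for Tjp1 and 0.60 for F11r. Cldn7 and Marveld2, whose intervals reached 0, were the members whose sign changed. Of the 63 member values under alternatives, the 26 given above lay outside the counting intervals of the TMM values and 37 within them. The median of all junction lists was 0.11 with total counts, 0.46 with upper quartile factors and 0.33 with at least 50 counts. With total counts, the medians of single lists were -0.44 for pore-forming claudins, 0.45 for barrier-forming claudins, 1.92 for other claudins, 0.11 for MARVEL and tricellular proteins, 0.67 for immunoglobulin proteins, 0.23 for scaffolds, 0.14 for polarity complexes, 0.16 for actomyosin, -0.23 for claudin partners and -0.25 for transcription factors. Without a count minimum, Ildr2 entered the MARVEL and tricellular list and its median was 0.60. With at least 1000 counts, 1149 genes were at a log2 ratio of 1 or more, 1586 at -1 or less, 379 at 2 or more and 482 at -2 or less. Of all genes past a line of 1, 48.9% were higher with DSS, 37.1% with total counts, 53.7% with upper quartile factors and 51.9% with centering, so the majority depends on the scaling. For a line of 2 the shares were 54.6%, 41.7%, 59.3% and 57.7%. A prior count of 2 kept each of the 25 gene pair differences within its interval. Of 20 claudin shares computed with another length or with none, 18 differed from the share per exon length by more than the counting error of the read share, and of 80 values for single list medians 26 moved by more than the members' median counting error. No replicate could be left out and no paired analysis was possible because each condition is 1 library, so variation between cultures is not in any interval. At these depths counting error was small for the members and large for Cldn1, Cldn9 and Cldn18.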

Other observations

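The following genes were chosen after their values were seen. Tjp3, the gene of ZO-3, was nearer 0 than Tjp1, at 159.9 CPM in the control and 160.7 with DSS, a log2 ratio of 0.01 (-0.03 to 0.05) whose sign depends on the scaling. Ybx3, a transcription factor also called ZONAB that binds ZO-1, was at 353 CPM in the control and 126 with DSS, a log2 ratio of -1.49 (-1.53 to -1.45), opposite in direction to Tjp1.

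Non-muscle myosin heavy chains also differed. Myh14 was at 283 and 772 CPM, a log2 ratio of 1.45 (1.42 to 1.47), whereas Myh9 was at 459 and 434 CPM, a log2 ratio of -0.08 (-0.10 to -0.05), whose sign also depends on the scaling. Cgnl1, the paralog of cingulin, was at 39.7 and 22.9 CPM, a log2 ratio of -0.79 (-0.89 to -0.70), while Cgn was higher with DSS. Lsr, an angulin that recruits tricellulin, was at 196 and 159 CPM, a log2 ratio of -0.30 (-0.34 to -0.26).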
